A study of Rattus norvegicus with 4 samples.

Results

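The genes described here are those of the small heat shock proteins of muscle and of the Hsp70 chaperones they work with, followed across 4 arrays of rat skeletal muscle. The 10 genes, chosen by symbol, were Hspb1, Hspb2, Hspb3, Hspb6, Hspb7, Hspb8, Cryab, Hspa8, Hspa1a and Hspa1b. Of these, 8 had a probe whose RefSeq accession matched the gene, out of 26624 genes or unnamed accessions measured and 13326 tested. The inducible Hsp70 genes Hspa1a and Hspa1b, near-identical copies of each other, had no matched probe and were not analysed here. All 8 measured genes were well above background on all 4 arrays, and none of their spots was saturated.

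Muscle RNA came from an exercised rat of the SPORTS line (1 array), from a sedentary SPORTS rat (1 array) and from wild-type rats (WT, 2 arrays). All animals were males aged 15 weeks. SPORTS is a mutant rat line with high spontaneous activity on a Wistar background, and the WT animals were also Wistar. The study's design text calls the WT rats sedentary, whereas the sample labels give no exercise state for them. The labels do not name the muscle, the kind of exercise or how many animals gave the WT arrays. The 2 WT arrays may be technical repeats. Where a single SPORTS array is tested, the spread is that of the WT pair alone, so those p-values may rest on technical spread. Where the SPORTS arrays form 1 group, the spread is that of both pairs. It then includes the difference between the exercised and the sedentary rat. Each SPORTS condition was a single array. Against WT muscle, the exercised array differs in line, exercise and animal, and these cannot be told apart. Between the SPORTS arrays, exercise cannot be told apart from the animal. Below, rose and fell mean higher and lower than in WT muscle.

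Small heat shock proteins bind partly unfolded proteins without using ATP and hold them until an Hsp70 refolds them or hands them on for degradation. Striated muscle makes most members of the family at high levels, where they bind desmin, filamin, actin and titin at the Z-disc and along the filaments. Heat shock factors switch on part of the family after heat, acid, oxidants or hard contraction, through repeats of the letters GAA and TTC in promoters.

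Levels are log2 fluorescence signals minus the 75th percentile of that array, so 0 is the level of the probe at that percentile. Each gene is represented by 1 probe, and levels are compared between arrays, not between genes. The arrays stood apart in fibre-type genes, and this touches every comparison below. The summed linear level of the 11 slow-fibre genes tested (Myh7, Tnni1 and others) was 447 in exercised SPORTS muscle and 1968 in sedentary SPORTS muscle, against 2095 and 2041 on the WT arrays. That of the 12 fast-fibre genes tested (Myh4, Tnnt3 and others) was 3631 in exercised SPORTS muscle and 482 in sedentary SPORTS muscle, against 1407 and 1452 on the WT arrays. All of these fibre genes were well above background on every array, as skeletal muscle should show. Of 7 heart genes, 5 passed the filter of 2 arrays well above background and summed to 107.1 in exercised SPORTS muscle, 226.0 in sedentary SPORTS muscle and 323.0 and 323.8 in WT muscle, while Nppa and Nppb did not pass it. The 9 fibroblast and tendon genes summed to 83.2 in exercised SPORTS muscle, 229.7 in sedentary SPORTS muscle and 351.1 and 338.1 in WT muscle. The 7 macrophage genes summed to 10.3 in exercised SPORTS muscle, 50.2 in sedentary SPORTS muscle and 35.4 and 23.0 in WT muscle. On the exercised array 7 of the 9 fibroblast and tendon genes, 5 of the 7 macrophage genes and 3 of the 5 heart genes were well above background. On the sedentary array 4 of the 5 heart genes were, so some of these sums include dim values. Probes well above background made up 46.0% in exercised SPORTS muscle, 50.3% in sedentary SPORTS muscle, and 48.7% and 48.9% in WT muscle. The part of fibre type, of other cell types and of signal strength in the results was not tested, and in whole muscle fewer cells of a type and less RNA per cell cannot be told apart.

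In exercised SPORTS muscle the small heat shock genes parted into 3 that fell, 1 that rose and 3 that did not pass the test, and the constitutive Hsp70 gene rose. Hspb7, Hspb6 and Hspb3 were 2.49-, 2.20- and 1.87-fold lower than in WT muscle. Hspb8 was 1.74-fold higher and Hspa8 was 1.41-fold higher. Cryab, Hspb1 and Hspb2 differed from the WT mean by at most 0.08 on the log2 scale. The call for 5 of 8 genes stands beside a background of 53.3% of all genes tested, 27.3% higher and 26% lower (limma, adjusted p below 0.05), so the number called is near that background. Subtracting the array median in place of the 75th percentile raised the median difference of all genes by 0.23 on the log2 scale and moved the split of all calls to 5571 higher and 2505 lower, against 3634 higher and 3463 lower. With the array median the split of the 8 genes stayed at 2 higher and 3 lower. Quantile normalization turned it to 1 higher and 4 lower, beside 3334 higher and 3695 lower of all genes.

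**Figure D1:**
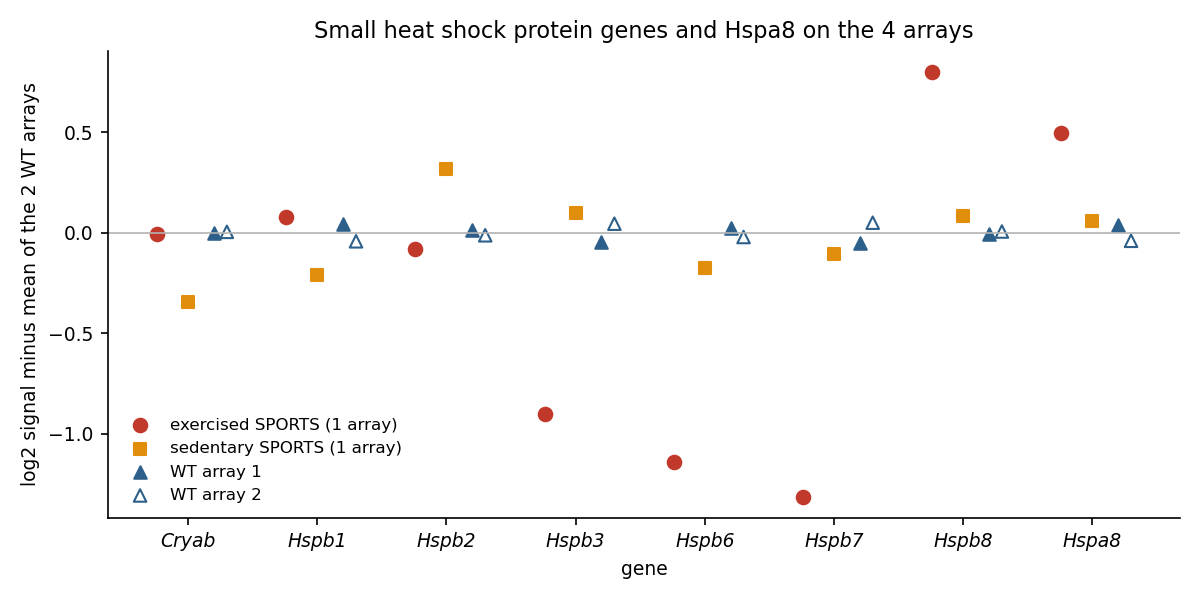
Level of each gene on each array as log2 signal minus the mean of the 2 WT arrays, 1 point per array. The exercised SPORTS array lies apart from the others for Hspb3, Hspb6, Hspb7 and Hspb8, by -1.31 for Hspb7 and by 0.80 for Hspb8, while the WT arrays differ by at most 0.10.

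The 3 genes that fell encode small heat shock proteins found mainly in heart and skeletal muscle. Their promoters are shown because they moved together on the exercised array. They are RefSeq sequences of build GRCr8 from 250 bases before to 50 bases after the annotated start, read on the gene's strand. Hspb7 lies at chr5:159010509-159010808 (plus strand), Hspb6 at chr1:94934122-94934421 (plus strand) and Hspb3 at chr2:47029116-47029415 (minus strand). Capitals mark a 2-unit heat shock element, GAANNTTC or TTCNNGAA, searched on both strands.
Hspb7: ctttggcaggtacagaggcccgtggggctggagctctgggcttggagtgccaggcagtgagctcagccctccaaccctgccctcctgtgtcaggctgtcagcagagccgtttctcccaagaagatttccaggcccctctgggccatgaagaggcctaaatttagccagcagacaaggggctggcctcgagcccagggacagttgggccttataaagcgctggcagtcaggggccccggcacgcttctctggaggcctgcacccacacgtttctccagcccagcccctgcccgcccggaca
Hspb6: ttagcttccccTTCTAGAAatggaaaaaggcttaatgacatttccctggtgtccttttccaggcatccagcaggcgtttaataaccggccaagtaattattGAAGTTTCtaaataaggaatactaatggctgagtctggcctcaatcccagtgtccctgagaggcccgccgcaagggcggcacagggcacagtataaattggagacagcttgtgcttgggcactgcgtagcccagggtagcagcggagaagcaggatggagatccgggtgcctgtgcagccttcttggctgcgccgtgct
Hspb3: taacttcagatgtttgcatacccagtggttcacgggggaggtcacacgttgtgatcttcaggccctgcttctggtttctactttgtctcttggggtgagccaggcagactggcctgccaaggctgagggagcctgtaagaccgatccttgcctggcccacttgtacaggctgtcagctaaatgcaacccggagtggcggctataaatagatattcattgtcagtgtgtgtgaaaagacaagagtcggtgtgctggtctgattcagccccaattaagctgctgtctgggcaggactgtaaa

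The 3 promoters shared 1 searched motif, TATAAA on either strand, which 14.2% of 33469 RefSeq promoters of the same length hold. It lies at -41 to -36 in Hspb7, at -58 to -53 in Hspb6 and at -50 to -45 in Hspb3, where the start is base 1 and the base before it is -1. Only Hspb6 among them held a 2-unit heat shock element, with TTCTAGAA at -239 to -232 and GAAGTTTC at -149 to -142. That element occurs in 15.9% of the promoters. CCAAT, on either strand, was in Hspb6, where it overlaps the last base of TATAAA, and in Hspb3, and is in 37.5% of promoters. The E-box CAGCTG, present in 15.1% of promoters, was in none of the 7 promoters of these genes that the table holds. A match of letters is a description and shows no binding.

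Hspb7, also called cvHsp, binds filamin C and is made almost solely in heart and skeletal muscle. Its level was 2.02 in exercised SPORTS muscle and 3.23 in sedentary SPORTS muscle, against 3.29 and 3.39 on the WT arrays. The exercised array stood alone and low, and the sedentary array lay just under the lower WT array. The exercised difference from WT was -1.31 ± 0.08 (log2, SE; adjusted p = 0.00610, limma), and 13.8% of the genes tested had a larger absolute difference. The sedentary difference was -0.11 ± 0.08 (adjusted p = 0.411, limma).

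Hspb6, or Hsp20, is a target of cyclic nucleotide-dependent kinases and binds proteins of the actin filament. It read 6.19 in exercised SPORTS muscle and 7.16 in sedentary SPORTS muscle, against 7.35 and 7.31 in WT muscle. Both SPORTS arrays were below both WT arrays, the exercised one by far. The exercised difference was -1.14 ± 0.07 (adjusted p = 0.00572, limma) and the sedentary one -0.17 ± 0.07 (adjusted p = 0.186, limma).

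Hspb3 forms complexes with Hspb2 and has a role in muscle differentiation. It read 3.75 in exercised SPORTS muscle and 4.75 in sedentary SPORTS muscle, against 4.61 and 4.70 in WT muscle. The exercised array was low, whereas the sedentary array was slightly above both WT arrays. The exercised difference was -0.90 ± 0.08 (adjusted p = 0.00927, limma), and the sedentary difference of 0.10 ± 0.08 did not pass (adjusted p = 0.427, limma). These 3 genes kept their sign and their call in the exercised muscle under each alternative run for that comparison that gives a test. Their differences ranged over those settings between -1.46 and -1.09 for Hspb7 and between -1.39 and -0.91 for Hspb6. For Hspb3 they ranged between -1.09 and -0.68. Rules for dim genes and probes, the variance trend and leaving out the sedentary array cannot move these differences or that of Hspb8 below. Each of these genes has a single probe, well above background on all arrays.

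The pattern over the 4 arrays was shared with genes outside the family. Among 7532 genes with a symbol that were well above background on all arrays, Smpd4, Itga8 and Dok1 lay nearest to Hspb7, at root mean square distances over the 4 arrays of 0.034, 0.043 and 0.044 on the log2 scale. Lhfpl6, Aebp1 and Hadha lay nearest to Hspb6, at 0.0050, 0.012 and 0.020. Dpysl2, Rab2b and Bpnt1 lay nearest to Hspb3, at 0.024, 0.028 and 0.036. With 4 arrays and so many genes, close matches are many, and the likeness says nothing of shared function.

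Hspb8 and Hspa8, the genes that rose in the exercised muscle, act in the same route. Hspb8 (Hsp22) joins the co-chaperone Bag3, which links it to Hsp70 and to the ubiquitin ligase Stub1, in the removal of damaged filamin and other Z-disc proteins by autophagy. Hspa8 (Hsc70) is the Hsp70 made at all times in most cells. Their promoters are shown because they hold heat shock elements to different extents. Hspb8 lies at chr12:45837058-45837357 (plus strand) and Hspa8 at chr8:50080264-50080563 (plus strand), both GRCr8 from RefSeq. Capitals mark the 2-unit element in Hspb8 and, in Hspa8, 3-unit elements of the form GAANNTTCNNGAA or TTCNNGAANNTTC, searched on both strands.
Hspb8: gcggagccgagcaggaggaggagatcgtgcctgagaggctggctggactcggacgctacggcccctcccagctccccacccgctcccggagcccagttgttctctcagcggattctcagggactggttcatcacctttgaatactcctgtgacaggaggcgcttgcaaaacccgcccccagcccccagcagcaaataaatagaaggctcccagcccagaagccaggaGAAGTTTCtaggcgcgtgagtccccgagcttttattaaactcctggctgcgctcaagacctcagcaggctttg
Hspa8: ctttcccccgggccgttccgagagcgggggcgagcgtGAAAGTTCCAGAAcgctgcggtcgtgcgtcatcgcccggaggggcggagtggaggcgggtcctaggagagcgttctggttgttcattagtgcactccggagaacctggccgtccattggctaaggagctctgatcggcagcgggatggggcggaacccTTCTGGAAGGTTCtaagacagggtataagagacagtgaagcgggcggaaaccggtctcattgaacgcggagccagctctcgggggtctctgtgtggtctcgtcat

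Hspa8 alone among the 7 promoters held 3-unit elements, which 0.798% of all promoters hold. It had 2, GAAAGTTCCAGAA at -213 to -201 and TTCTGGAAGGTTC at -55 to -43, and its 4 matches to the 2-unit element lie inside them. Hspb8 had a single 2-unit match, GAAGTTTC at -23 to -16. In all, 4 of the 7 promoters had a 2-unit match, those of Hspb1, Hspb6, Hspb8 and Hspa8. Hspb1 had 2 such matches, GAAGTTTC at -129 to -122 and GAACCTTC at -109 to -102. The promoter of Hspa1a had none of the searched motifs in this window. That holds for the annotated start alone, and whether this start is the one used in muscle was not tested. No promoter sequence was available for Hspb2, Cryab or Hspa1b.

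Hspb8 read 3.83 in exercised SPORTS muscle and 3.11 in sedentary SPORTS muscle, against 3.02 and 3.03 in WT muscle. The WT arrays nearly coincided, and both SPORTS arrays were above them. The exercised difference was 0.80 ± 0.06 (adjusted p = 0.00811, limma) and kept its sign and call under each alternative run for that comparison that gives a test, between 0.61 and 1.02. The sedentary difference was 0.08 ± 0.06 (adjusted p = 0.419, limma).

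Hspa8 read 7.64 in exercised SPORTS muscle and 7.20 in sedentary SPORTS muscle, against 7.18 and 7.10 in WT muscle. The exercised array was the highest, and the sedentary array was close to the higher WT array. The exercised difference was 0.49 ± 0.07 (adjusted p = 0.0229, limma). Under quantile normalization it was -0.03 (adjusted p = 0.782, limma). With dim genes kept in the test the difference was the same and the call was lost (adjusted p = 0.069, limma).

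Hspa8 was the only one of the 8 genes with several probes. Its 4 probes, listed from the one used here downwards in mean signal, were higher in exercised SPORTS than in WT muscle by 0.49, 0.52, 0.24 and 0.25 on the log2 scale. In sedentary SPORTS muscle they were higher by 0.06, 0.12, 0.13 and 0.13. All 4 had the same sign in both muscles after scaling. The excess of the exercised over the sedentary array was 0.43 and 0.41 for the first 2 probes and 0.11 and 0.13 for the last 2. The exercised array was dimmer, with a log2 75th percentile of 9.72, against 10.07 and 10.05 in WT muscle. Unscaled, the last 2 probes read 11942 and 5909 there, 12781 and 6321 on WT array 1, and 12723 and 6188 on WT array 2. The sign of these 2 in the exercised muscle thus depends on scaling, while the first 2 were higher than in WT muscle unscaled too. Other scalings were run for the first probe alone. Hspa8 has processed pseudogenes in mammals, and RNA from near-identical copies cannot be told apart on a probe.

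**Figure D2:**
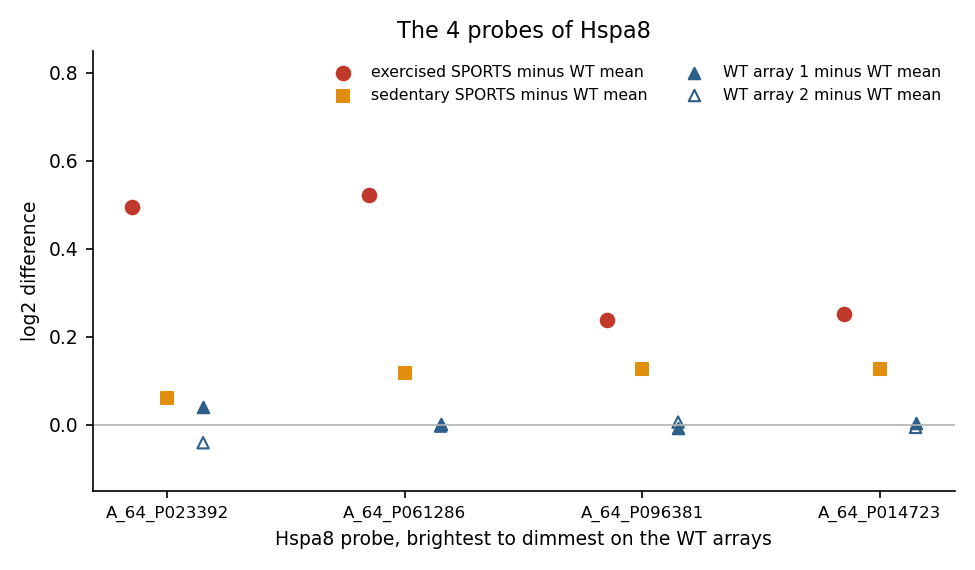
Log2 difference from the mean of the WT arrays for each of the 4 Hspa8 probes, 1 point per array. On each probe both SPORTS arrays lie above 0, with the exercised array at 0.49, 0.52, 0.24 and 0.25.

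Cryab, Hspb1 and Hspb2 did not pass the test in either SPORTS muscle. Cryab encodes alphaB-crystallin, a chaperone of desmin that is abundant in slow fibres. It read 8.31 in exercised SPORTS muscle and 7.96 in sedentary SPORTS muscle, against 8.31 on both WT arrays. Only the sedentary array was low. The sedentary difference was -0.35 ± 0.06 (adjusted p = 0.0749, limma) and the exercised one -0.01 ± 0.06 (adjusted p = 0.951, limma). The exercised value depended on scaling, at 0.22 with the array median (adjusted p = 0.066) and -0.46 after quantile normalization (adjusted p = 0.026, both limma). Slow-fibre genes summed to 447 on the exercised array, against 2095 and 2041 in WT muscle, and their part in the Cryab values was not tested.

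Hspb1 (Hsp27, called Hsp25 in rodents) caps actin filaments and is phosphorylated after stress. It read 7.05 in exercised SPORTS muscle and 6.77 in sedentary SPORTS muscle, against 7.02 and 6.93 in WT muscle. The exercised array was just above the WT pair and the sedentary array just below it. Differences were 0.08 ± 0.08 (adjusted p = 0.449) in exercised and -0.21 ± 0.08 (adjusted p = 0.176) in sedentary SPORTS muscle (limma), and the exercised one was -0.29 under quantile normalization.

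Hspb2 binds the kinase of myotonic dystrophy, Dmpk, and the annotated span of its gene overlaps that of Cryab in the RefSeq table. It read 3.97 in exercised SPORTS muscle and 4.37 in sedentary SPORTS muscle, against 4.06 and 4.04 in WT muscle. Here the sedentary array was the high one. The sedentary difference was 0.32 ± 0.06 (adjusted p = 0.0845) and the exercised one -0.08 ± 0.06 (adjusted p = 0.353; limma). With the array median the exercised difference was 0.14. Cryab and Hspb2 thus had opposite signs on the sedentary array, and neither passed.

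In sedentary SPORTS against WT muscle, 0 of the 8 genes passed, beside 6.27% of all genes tested (limma, adjusted p below 0.05). At an unadjusted p under 0.05 (limma), 2 of the 8 passed, Cryab and Hspb2, as did 4839 of the 13326 genes tested. The 8 differences lay between -0.35 and 0.32, with a median of -0.02 beside -0.01 over all genes. In the exercised muscle they lay between -1.31 and 0.80 with a median of -0.04, beside 0.00 over all genes. At least 2-fold differences from WT were seen there for 2 of the 8, Hspb6 and Hspb7, and for 20.6% of all genes. Genes with a larger absolute difference there made up 13.8% for Hspb7, 17.4% for Hspb6 and 23.6% for Hspb3. They made up 27.2% for Hspb8, 43.1% for Hspa8 and at least 88.1% for Cryab, Hspb1 and Hspb2. Both comparisons use the same WT arrays, and each sets 1 array against the spread of that pair.

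**Figure D3:**
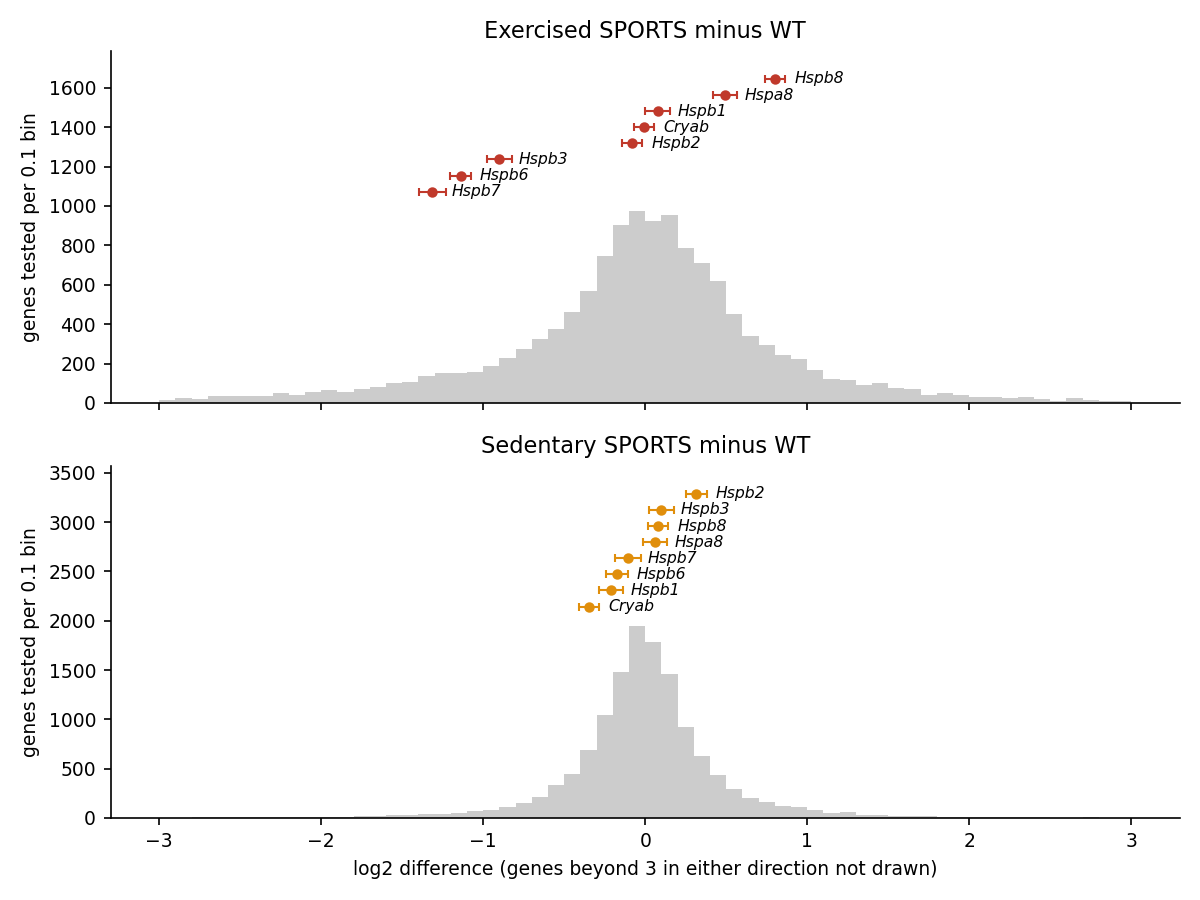
Log2 difference from WT of the 8 genes (points, with SE bars) above a histogram of all 13326 genes tested in bins of 0.1, for exercised SPORTS muscle (top) and sedentary SPORTS muscle (bottom). The point heights only separate the labels. The 8 genes spread between -1.31 and 0.80 in the exercised muscle and between -0.35 and 0.32 in the sedentary muscle, where all genes also spread less.

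With both SPORTS arrays taken as 1 group against WT, 0 of the 8 genes passed, as did 0% of all genes tested (limma, adjusted p below 0.05). At an unadjusted p under 0.05 (limma) the counts were 0 of the 8 and 982 of the 13326 genes tested. Hspb7 differed by -0.71 ± 0.48 (adjusted p = 0.772), Hspb6 by -0.66 ± 0.39 (adjusted p = 0.768), Hspb8 by 0.44 ± 0.30 (adjusted p = 0.772) and Hspa8 by 0.28 ± 0.21 (adjusted p = 0.772; limma). The other 4 lay between -0.40 and 0.12. The spread here includes the difference between exercised and sedentary animals, which was between -1.21 and -0.97 on the log2 scale for Hspb7, Hspb3 and Hspb6. Without the sedentary array 5 genes passed, which is the exercised comparison again.

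Judged by order alone, Hspb8 and Hspa8 were above both WT arrays on both SPORTS arrays, as were 21.4% of all genes. Hspb6, Hspb7 and Cryab were below both WT arrays on both SPORTS arrays, as were 22.3% of all genes. Hspb1, Hspb2 and Hspb3 had their SPORTS arrays on opposite sides of the WT pair, as had 37.6% of all genes.

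Between exercised and sedentary SPORTS muscle there is 1 array a side and no test. Hspb7 differed by -1.21, Hspb3 by -1.0, Hspb6 by -0.97 and Hspb2 by -0.40 on the log2 scale, all lower in the exercised muscle. Hspb8 was higher by 0.72, Hspa8 by 0.43, Cryab by 0.34 and Hspb1 by 0.29. At least 2-fold apart were 2 of the 8, Hspb7 and Hspb3, beside 21.9% of all genes tested. Hspb3 was 2.0-fold and Hspb6 1.95-fold lower, so both lie at the limit, and quantile normalization gave 3 genes, Hspb6 included. Under quantile normalization the differences of Cryab, Hspb1 and Hspa8 turned to -0.31, -0.14 and -0.19, while those of the other 5 kept their sign under each of the 4 scalings.

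**Figure D4:**
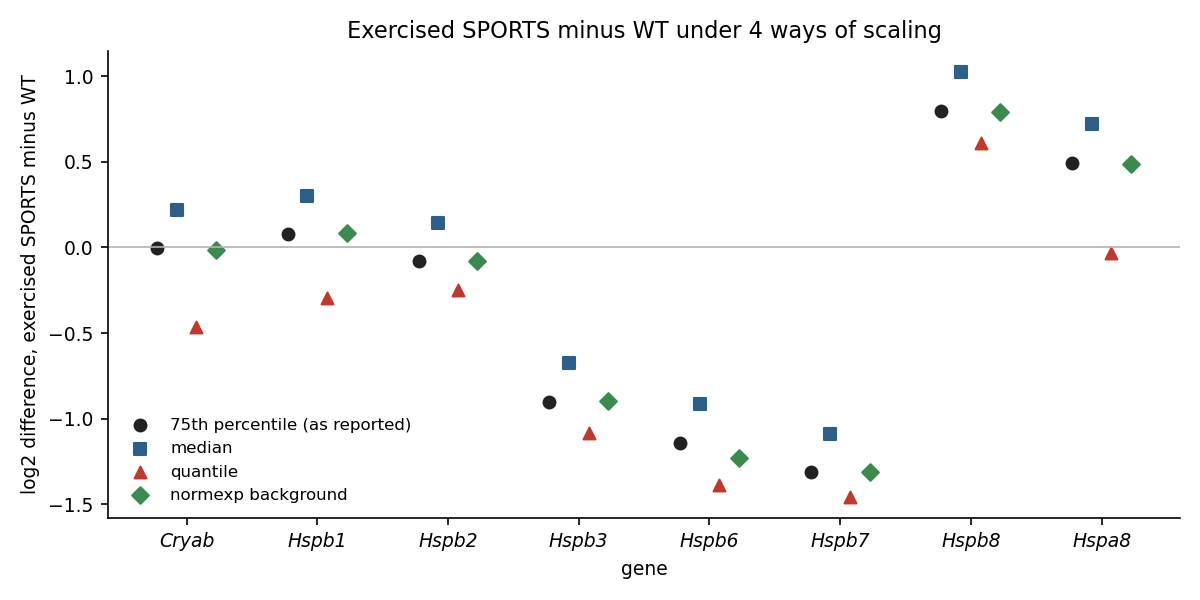
Log2 difference between exercised SPORTS and WT muscle for each gene under 4 ways of scaling the arrays. Hspb3, Hspb6 and Hspb7 stay below 0 and Hspb8 above 0 under all 4, whereas Hspa8 is at -0.03 under quantile normalization and Cryab lies between -0.46 and 0.22.

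Beyond the 10 genes, 5 further lists, called other chaperones here, held 69 genes, of which 60 were tested. They include heat shock factors and a list of other small heat shock genes together with Hspbap1, the only gene of that list tested. In exercised SPORTS against WT muscle 27 were higher and 8 lower, or 58.3%, beside the background of 53.3%. With the array median the split was 36 higher and 3 lower, beside 5571 higher and 2505 lower of all 13326 genes. After quantile normalization it was 20 higher and 8 lower, beside 3334 higher and 3695 lower of all genes. There 28 of the 60 passed, a smaller share than the 7029 of 13326 over all genes. The median difference of the other chaperones was 0.18 on the log2 scale, and 0.00 for all genes. After quantile normalization it was 0.065, and -0.031 for all genes. In sedentary SPORTS muscle 4 were higher and 0 lower, or 6.67%, beside the background of 6.27%, with a median of 0.11 (-0.01 for all genes). With both SPORTS arrays as 1 group 0 passed.

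The heat shock factors and other Hsp70 genes had 6 higher and 3 lower of 13 in the exercised muscle (7 and 2 with the array median). Hsf1, the main factor of the heat shock response, read 1.99 in exercised SPORTS and 1.91 in sedentary SPORTS muscle, against 1.6 and 1.5 in WT muscle. Both SPORTS arrays were above the WT pair, and the exercised difference of 0.44 ± 0.08 passed (adjusted p = 0.0324), the sedentary one of 0.36 ± 0.08 did not (adjusted p = 0.0956; limma). The exercised call was lost under quantile normalization (adjusted p = 0.056). Hsph1, the Hsp110 that frees ADP from Hsp70, rose in both, by 0.80 (adjusted p = 0.00945) in exercised and 0.72 (adjusted p = 0.0474) in sedentary SPORTS muscle (limma).

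Hspa1l and Hyou1, which like Chordc1 are named because they passed in the sedentary muscle, a choice made after their values were seen, passed in both muscles. Hspa1l, a Hsp70 gene best known from the testis, was higher by 0.53 in exercised and by 0.69 in sedentary SPORTS muscle. Hyou1, an Hsp70 relative of the endoplasmic reticulum, was higher by 0.89 in exercised and by 0.94 in sedentary SPORTS muscle. Hspa2, another Hsp70 gene known for its role in the testis, fell by 1.5 in the exercised muscle (adjusted p = 0.00732), and its sedentary difference was 0.28 (adjusted p = 0.189; limma). Hsf4, a heat shock factor known from the lens, was higher by 0.75 in the exercised muscle (adjusted p = 0.00974, limma) and differed by -0.03 in the sedentary muscle. Hspa12a, a distant Hsp70 relative, fell by 0.52 in the exercised muscle (adjusted p = 0.0163, limma), a call lost with normexp (adjusted p = 0.10). Hspa14, a ribosome-associated Hsp70, differed by -0.45 between the exercised and the sedentary array.

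Among J-domain proteins and exchange factors, which set the pace of Hsp70, 10 were higher and 3 lower of 22 in the exercised muscle. That is 59.1%, beside 53.3% of all genes, and the split was 15 and 1 with the array median. In the sedentary muscle 0 passed, but with normexp 3 were higher and 1 lower, where 2493 of all 13326 genes passed. Bag3, the partner of Hspb8, read 5.08 in exercised SPORTS and 5.42 in sedentary SPORTS muscle, against 5.46 on both WT arrays. It fell by 0.38 in the exercised muscle (adjusted p = 0.0266, limma), where Hspb8 rose, and this call was lost with the array median (adjusted p = 0.130). Stub1, the ligase of the same complex, differed by 0.07 in exercised and by 0.08 in sedentary SPORTS muscle, and neither passed (adjusted p = 0.441 and 0.459, limma). With the array median the exercised Stub1 difference was 0.29 and passed (adjusted p = 0.0404, limma), and after quantile normalization it was -0.11. No probe was matched to Dnajb1.

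Dnaja4, a J-domain protein, fell by 1.88 in the exercised muscle and differed by -0.49 in the sedentary muscle. In the exercised muscle Dnajb9 and Dnajc3, J-domain proteins of the endoplasmic reticulum, rose by 0.75 and 0.71, and Dnajb2, which is made in neurons and muscle, rose by 0.94 (adjusted p between 0.00441 and 0.0137 for these 4, limma).

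Among Hsp90 and its helpers 9 were higher and 0 lower of 13 in the exercised muscle, or 69.2%. Over all genes 53.3% passed there, 27.3% higher and 26% lower. In the sedentary muscle 1 of 13, the Hsp90 partner Chordc1, was higher (adjusted p = 0.0495, limma), beside 6.27% of all genes that passed. Under other scalings the sedentary count was 2 with the array median, 0 after quantile normalization (adjusted p = 0.0524 for Chordc1, limma) and 3 with normexp. Hsp90aa1, the inducible cytosolic Hsp90, read 3.0 in exercised SPORTS and 3.02 in sedentary SPORTS muscle, against 2.36 and 2.28 in WT muscle. The SPORTS arrays nearly coincided above the WT pair. The exercised difference of 0.68 passed (adjusted p = 0.0135), and the sedentary one of 0.70 missed the threshold (adjusted p = 0.0510; limma). The sedentary difference passed with the array median (adjusted p = 0.0498) and with normexp (adjusted p = 0.00635, both limma). Fkbp5, an Hsp90 co-chaperone that glucocorticoids induce, read 2.95 in exercised SPORTS and 0.70 in sedentary SPORTS muscle, against 0.72 and 0.82 in WT muscle. It rose by 2.18 in the exercised muscle (adjusted p = 0.00446, limma). Ptges3, the p23 co-chaperone, rose there by 0.88 (adjusted p = 0.00844, limma). The constitutive Hsp90ab1 and the co-chaperone Fkbp4 differed from WT by -0.22 and -0.20 in the exercised muscle and did not pass (adjusted p = 0.274 and 0.246, limma), with values of 0.01 and 0.03 under the array median.

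The chaperonin and collagen chaperone list had 2 higher and 2 lower of 11 in the exercised muscle and 0 in the sedentary muscle. The exercised share was 36.4%, beside 53.3% of all genes. The exercised split was 5 and 0 with the array median, and 0 and 2 after quantile normalization. Cct6a, a subunit of the cytosolic chaperonin, differed by 0.47 and Cct8, another subunit, by -0.48 (adjusted p = 0.0191 and 0.0207, limma). The Cct6a call was lost under quantile normalization (adjusted p = 0.053) and the Cct8 call with the array median (adjusted p = 0.062). Serpinh1, the collagen chaperone, fell by 0.56 (adjusted p = 0.0460, limma), a call lost with the array median (adjusted p = 0.110). Cct2, a further chaperonin subunit, differed by -0.12 and did not pass (adjusted p = 0.204, limma), and was 0.10 with the array median. The fibroblast and tendon genes fell in the exercised muscle too, 9 of 9. In sedentary SPORTS muscle Serpinh1 differed by 0.43 (adjusted p = 0.128, limma), while 5 of these 9 genes fell and their median was -0.68. Of the other small heat shock list only Hspbap1 was tested, with -0.23 in exercised and -0.03 in sedentary SPORTS muscle, neither passing. Cryaa and Odf1 were not well above background on 2 arrays, and Hspb9 and Hspb11 had no matched probe. No further small heat shock protein gene was thus tested.

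The list of clients and partners of small heat shock proteins had 1 higher and 2 lower of 7 in the exercised muscle (5 and 2 with the array median). Flnc, filamin C, the client shared by Hspb7 and the Hspb8 and Bag3 complex, read 4.99 in exercised SPORTS and 3.93 in sedentary SPORTS muscle, against 4.20 and 4.29 in WT muscle. The exercised array was above the WT pair and the sedentary array below it. The exercised difference of 0.74 passed (adjusted p = 0.0121) and the sedentary one of -0.32 did not (adjusted p = 0.105; limma). Actn2, the Z-disc alpha-actinin, fell by 1.43 (adjusted p = 0.00484) and Fhl1, a LIM protein of muscle, by 0.73 (adjusted p = 0.00913) in the exercised muscle (limma). Des, desmin, read 7.63 in exercised SPORTS and 7.31 in sedentary SPORTS muscle, against 7.10 and 7.33 in WT muscle, and passed in neither (adjusted p = 0.0900 in exercised and 0.625 in sedentary SPORTS muscle, limma). The exercised Des difference of 0.41 depended on scaling: it passed with the array median at 0.64 (adjusted p = 0.0363) and with normexp at 0.42 (adjusted p = 0.0149, both limma), and was -0.11 after quantile normalization. Sqstm1, the autophagy receptor p62, differed from WT by 0.18 in the exercised and -0.18 in the sedentary muscle, and neither passed (adjusted p = 0.143 and 0.209, limma). The exercised value was 0.41 with the array median, where it passed (adjusted p = 0.0283, limma), and -0.013 after quantile normalization.

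**Figure D5:**
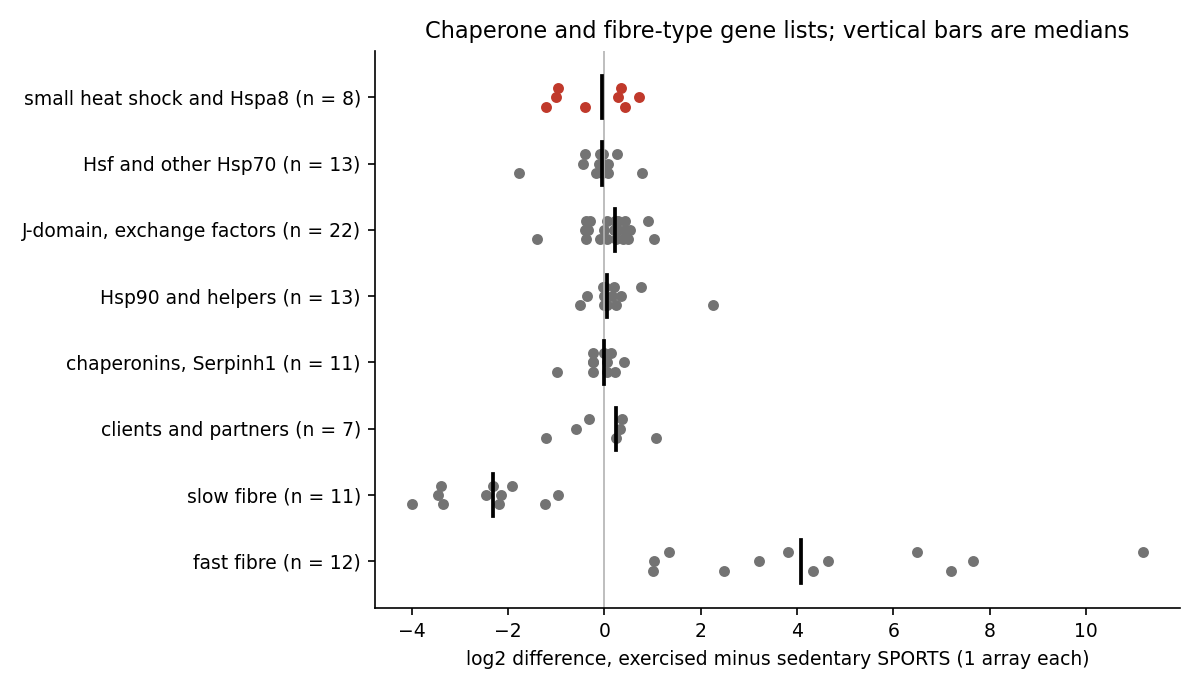
Log2 difference between exercised and sedentary SPORTS muscle (1 array each) for each tested gene of the chaperone and fibre-type lists, with a bar at each list's median. The 8 small heat shock and Hspa8 genes have a median of -0.05, the slow-fibre genes -2.31 and the fast-fibre genes 4.07.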

How the data were processed

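Total RNA from 4 muscle samples was labelled with Cy3 and hybridised to one-colour Agilent arrays, all on 1 slide per the file headers, so no batch comparison could be made. The deposited scanner files give a processed signal intensity per spot, read with Agilent Feature Extraction 10.7.1.1 per the submitters' processing notes, together with flags for outliers, saturation and background. The authors' deposited value table holds log2 values. Over 30015 probes its differences between arrays correlated with those of the scanner values at r = 1.00 in the same direction, and each probe is centred on its median over the arrays, so it carries no levels. The design of the array was built on an older assembly than the RefSeq table, so coordinates are given for promoters alone.

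Control spots and 352 of 30367 probes with outlier flags were left out, spots of a probe were averaged, and log2 signals were taken minus the 75th percentile of each array. Genes were named through the RefSeq accession, each by its probe of highest mean, and tested if well above background on at least 2 of 4 arrays. limma 3.58.1 (R 4.3.3) was fitted with SPORTS against WT as 2 groups, and with 3 groups, where the spread comes from the WT pair and the lone SPORTS arrays are assumed to vary like it. P-values were adjusted over all 13326 genes tested by Benjamini and Hochberg. The number of arrays limits the precision. Named beside the 10 genes are, per further chaperone list, the 4 genes of largest exercised against sedentary difference among those well above background on all arrays, and Hsf1, Hsp90aa1, Hsph1, Dnajb1, Bag3, Stub1, Flnc and Des. The genes and lists were chosen with earlier results of these data known. The fits were tested on simulated data.

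Alternatives were the array median, quantile normalization, normexp with offset 50, the value table, other rules for dim genes and probes, outlier spots kept, a variance trend, and each array left out.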

Additional observations from a re-analysis of the deposited data

Results flagged for a closer look

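Hspb1, Hspb2 and Hspb3 drew attention because the exercised SPORTS array lay on one side of both WT arrays and the sedentary SPORTS array on the other. The difference between exercised and sedentary SPORTS muscle was 0.29 on the log2 scale for Hspb1, -0.40 for Hspb2 and -1.0 for Hspb3, and with 1 array a condition it was not tested. Of all genes tested, 37.6% showed the same arrangement.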

How the results depend on the processing

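In exercised SPORTS against WT muscle 4 or 5 of the 8 genes passed under each alternative run, with Cryab in place of Hspa8 under quantile normalization. In sedentary SPORTS against WT muscle the count was 0, but 1 (Cryab) when only genes detected above background on all 4 arrays were tested and 2 (Cryab and Hspb2) with a variance trend. In SPORTS against WT it ranged between 0 and 5 with 1 array left out, the 5 arising without the sedentary array. Exercised and sedentary SPORTS muscle were at least 2-fold apart for 2 genes, and for 1 (Hspb7) with the array median or with outlier spots kept, for 3 (Hspb3, Hspb6, Hspb7) after quantile normalization, and for Hspb6 and Hspb7 with normexp. In SPORTS against WT the sign turned for Hspb1 with the array median (0.061). With 1 array left out, signs turned for Hspb1, which ranged between -0.21 and 0.078, for Hspb2, between -0.082 and 0.32, and for Hspb3, between -0.90 and 0.099. In exercised SPORTS against WT they turned for Hspb1 (-0.29, quantile), Hspb2 (0.14, array median), Cryab (0.22, array median) and Hspa8 (-0.031, quantile). Where no alternative's construction shows it, the cause was not tested.

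Counts over all genes moved more. In sedentary SPORTS against WT, 836 passed, but 0 with dim genes kept, 1611 with a floor, 2170 with detection required on every array, 2493 with normexp and 2816 with a variance trend, and the other chaperones moved between 0 and 16 about a count of 4. In SPORTS against WT, 0 genes passed, but 1 with quantile normalization or normexp, 836 without the exercised array and 7097 without the sedentary array, with 4 and 35 other chaperones in these last 2. In exercised SPORTS against WT 35 other chaperones passed, and 18 with dim genes kept. At least 2-fold between SPORTS muscles were 2920 genes, and 4887 with dim genes kept. Without a WT array the 3-group fit has no residual degrees of freedom and gives no test. No paired analysis was possible because each SPORTS condition is 1 array and the labels link no animals across groups.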
